A study of Mus musculus with 9 samples.

Results

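The genes described here are 30 genes of the tricarboxylic acid (TCA) cycle and of acetyl-CoA metabolism, among 17097 genes measured on Affymetrix MG-430 PM strip arrays in primary murine microglia. They were chosen by name, with earlier results of these data known. The list holds the acetate-activating synthetases, the pyruvate dehydrogenase complex, the enzymes that feed malate and pyruvate into the cycle, and the cycle itself. It also holds the enzymes and carrier that link the cycle to glutamate, aspartate and cytosolic citrate. Each gene is represented by the brightest of its probe sets (highest mean of the 9 arrays), and 28 of the 30 were measured, by 56 probe sets in all. Dld and Got1 are named only. The microglia were grown from the cortices of C57BL/6J mice at P0-P2. For 6 h, 3 samples were exposed to glioma-conditioned medium from human LN18 cells (GCM LN18) and 3 to that from human U87-MG cells (GCM U87-MG). A further 3 were left untreated (control). The replicates are described as separate cortical cultures, but whether samples of the same replicate number share a culture is not given. Each medium came from 1 human cell line acting on mouse cells. Whether the untreated dishes also had their medium changed is not given in the sources used here. All values below are log2 signals, on which a difference of 1 is 2-fold, and differences are GCM minus control.

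In the TCA cycle, acetyl groups carried by coenzyme A are joined to oxaloacetate in the mitochondrial matrix and oxidised to carbon dioxide, and the electrons released feed the respiratory chain. Acetyl-CoA is made from pyruvate, fatty acids, ketone bodies or acetate, and outside mitochondria it is the building block of fatty acids and sterols and the donor for acetylation of histones and other proteins. Macrophages and microglia are known to shift between glycolysis and oxidative metabolism when they are activated, and citrate, succinate and itaconate act as signals in them.

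Both acetate-activating enzymes, Acss1 and Acss2, were lower in microglia exposed to either medium in the fit with 1 mean per group, and with the replicate number as a block the call was kept for Acss1 in GCM LN18 alone. None of the 15 measured enzymes of the cycle itself passed the test in either medium. A gene was called where its adjusted p from limma, over all genes, was under 0.05. In GCM LN18, 4 of the 28 genes were called lower (Acss1, Acss2, Pcx and Idh1) and 0 higher, where 5.23% of all genes were called, 2.64% lower and 2.59% higher. In GCM U87-MG, 2 were called lower (Acss1 and Acss2) and 0 higher, where 1.51% of all genes were called, 0.708% lower and 0.807% higher. The median log2 fold change of the 28 genes was 0.01 with GCM LN18 and -0.02 with GCM U87-MG, and the medians of all genes were -0.0037 and -0.0026.

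In the deposited table the 3 arrays of each replicate number average to the same value for every probe set, so the spread between replicate numbers is no longer in the values. A fit that keeps the replicate number as a block gives the same fold changes with 4 residual degrees of freedom in place of 6, and its adjusted p follows each call as the value when blocked. With the replicate block, 1 of the 28 genes was called lower and 0 higher in GCM LN18 (Acss1, where 0.877% of all genes were called, 0.339% lower and 0.538% higher). In GCM U87-MG the blocked limma fit called 0 of the 28 (where 0.0468% of all genes were called), with 4 at an unadjusted p under 0.05 (9.12% of all genes) against 5 in GCM LN18 (12.2% of all genes). Both media were set against the same 3 control arrays, so their fold changes are not independent of each other.

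The spread between arrays was small for most members, and control replicate 2 was the highest control array for many. The SD over the 3 arrays of a group had a median over the 28 genes of 0.037 in GCM LN18, 0.073 in GCM U87-MG and 0.077 in control microglia, and it reached 0.28 for Acss1 in control microglia. Control replicate 2 was the highest control array for 22 of the 28 genes (78.6%), where it was the highest for 35.0% of all genes. Within replicate 2, 21 of the 28 genes were below control in GCM LN18 (75.0%, against 51.2% of all genes) and 21 in GCM U87-MG (75.0%, against 52.1%). Since the 3 arrays of a replicate number have a fixed mean, a high control array goes with low exposed arrays of that number, so these counts do not tell which of the replicate 2 arrays stood apart. Without control replicate 2, Acss1, Idh1 and Pcx were called in GCM LN18 (log2 fold changes -0.77, -0.56 and -0.36, limma adjusted p = 0.0114, 0.0202 and 0.0135). Acss1 and Acss2 were called in GCM U87-MG (-0.84 and -0.53, limma adjusted p = 0.0254 and 0.0487). With the block and without that array, limma adjusted p was 0.0333, 0.0586 and 0.0562 in GCM LN18 and 0.0618 and 0.218 in GCM U87-MG. These blocked fits have fold changes of their own, not printed here. The exposed arrays of replicate 2 still have values set by a mean shared with the array left out. Leaving it out therefore cannot show that the calls are free of its influence.

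**Figure D1:**
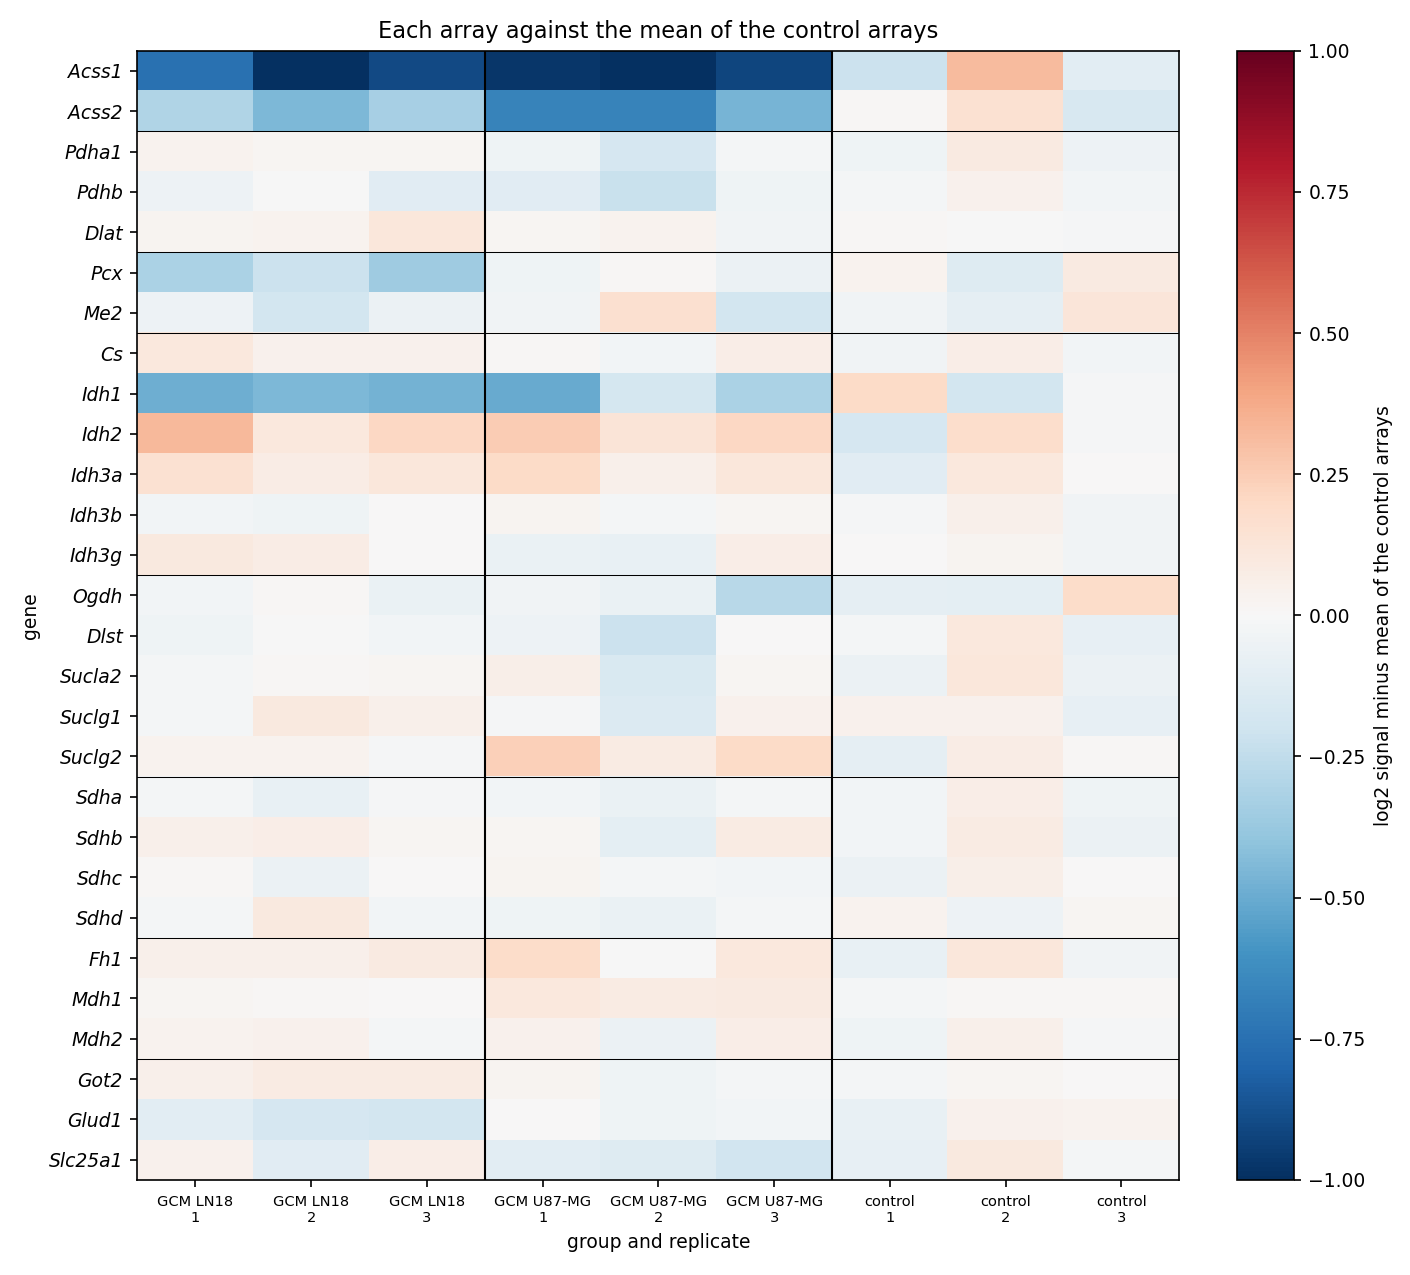
Log2 signal of each array minus the mean of the 3 control arrays (colour, blue lower and red higher, with the scale ending 1 unit below and above 0) for the 28 genes (rows, in groups by role) in GCM LN18, GCM U87-MG and control microglia (columns, replicates 1 to 3). Acss1, Acss2 and Idh1 are blue across the exposed arrays, and the control replicate 2 column is mostly red.

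Acss1, the mitochondrial acetyl-CoA synthetase, which turns acetate into acetyl-CoA inside the matrix, had log2 signals of 6.23, 5.84 and 6.07 with GCM LN18, 6.01, 5.86 and 6.06 with GCM U87-MG, and 6.77, 7.29 and 6.87 in control microglia. All 6 exposed arrays lay below all 3 control arrays, and the highest control array was replicate 2. It averaged 6.05 ± 0.19 in GCM LN18, 5.98 ± 0.10 in GCM U87-MG and 6.98 ± 0.28 in control microglia (SD, n = 3 each). The log2 fold change was -0.93 in GCM LN18 (standard error 0.14, limma adjusted p = 0.00736, 0.0411 when blocked), 1.90-fold lower than control. In GCM U87-MG it was -1.0006 (standard error 0.14, limma adjusted p = 0.0170, 0.0993 when blocked), 2.00-fold lower. Within replicates 1, 2 and 3 the differences from control were -0.54, -1.45 and -0.80 in GCM LN18 and -0.76, -1.43 and -0.81 in GCM U87-MG, so replicate 2 gave the greatest fall in both. In GCM LN18 the call for Acss1 was kept when any 1 of the 9 arrays was left out (log2 fold change -1.03 to -0.77, limma adjusted p 0.0105 to 0.0353). In GCM U87-MG it was lost without GCM U87-MG replicate 1 (limma adjusted p = 0.0814), replicate 2 (0.0518) or replicate 3 (0.0663). Acss1 has a pair of other probe sets with mean log2 signals of 2.32 and 1.98, below the array medians of 3.39 to 3.41. On these probe sets the log2 fold changes were -0.13 and -0.10 in GCM LN18 and -0.14 and -0.01 in GCM U87-MG, none called among all probe sets (where 3.33% were called with GCM LN18 and 0.797% with GCM U87-MG), and the mean of the 3 probe sets had -0.38 with GCM LN18 and -0.38 with GCM U87-MG (limma adjusted p = 0.00478 and 0.0146, or 0.0483 and 0.148 when blocked).

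Acss2, the cytosolic and nuclear acetyl-CoA synthetase, which supplies acetyl-CoA for lipid synthesis and histone acetylation, had log2 signals of 3.85, 3.70 and 3.81 with GCM LN18, 3.48, 3.48 and 3.68 with GCM U87-MG, and 4.16, 4.30 and 3.99 in control microglia. Every exposed array lay below every control array, and all 9 were close to the array medians, so this is a dim signal. The log2 fold change was -0.36 in GCM LN18 (standard error 0.085, limma adjusted p = 0.0445, 0.165 when blocked) and -0.60 in GCM U87-MG (standard error 0.085, limma adjusted p = 0.0175, 0.116 when blocked). The GCM LN18 call was lost without control replicate 1 (limma adjusted p = 0.106) or 2 (0.103), without GCM LN18 replicate 1 (0.0952), 2 (0.150) or 3 (0.105), and without GCM U87-MG replicate 1 (0.0601) or 2 (0.0555). It was also lost with the mean of the probe sets (-0.31, limma adjusted p = 0.150), in the fit over all probe sets (0.0556) and when only GCM LN18 and control arrays were fitted (0.0601). The GCM U87-MG call was lost without control replicate 1 (limma adjusted p = 0.0560) and without GCM U87-MG replicate 1 (0.0829) or 2 (0.0571). It was also lost with the mean of the probe sets, when only GCM U87-MG and control arrays were fitted, and in each fit with the block. Of 10 settings other than leaving out 1 array, 4 kept it. The other probe set of Acss2 is as dim (mean log2 signal 3.81) and had log2 fold changes of -0.25 with GCM LN18 and -0.23 with GCM U87-MG (limma adjusted p = 0.394 and 0.454 over all probe sets).

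Since Acss1 and Acss2 were the members called in both media without the replicate block, the 250 bases before their RefSeq starts (build GRCm38.p6, both on chromosome 2) are printed here, 5′ to 3′ in the direction of the gene, with GC boxes (GGGCGG on either strand, the element bound by Sp1 and its relatives) in capitals. Acss1 is at chr2:150668241-150668490 on the minus strand and Acss2 at chr2:155517793-155518042 on the plus strand.
Acss1: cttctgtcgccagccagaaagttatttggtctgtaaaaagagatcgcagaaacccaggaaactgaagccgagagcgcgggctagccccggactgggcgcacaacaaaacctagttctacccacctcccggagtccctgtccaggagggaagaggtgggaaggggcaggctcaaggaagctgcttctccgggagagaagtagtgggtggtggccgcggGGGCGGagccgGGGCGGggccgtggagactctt
Acss2: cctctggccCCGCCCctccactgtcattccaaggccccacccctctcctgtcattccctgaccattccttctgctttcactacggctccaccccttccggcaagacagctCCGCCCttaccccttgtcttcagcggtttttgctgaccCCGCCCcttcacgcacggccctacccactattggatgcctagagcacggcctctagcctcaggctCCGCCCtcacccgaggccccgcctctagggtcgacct
The Acss1 window held 2 GC boxes close to the start, and the Acss2 window held 4 spread over its length, with 0 overlaps with another searched motif in either. GC content was 61.6% in Acss1 and 64.0% in Acss2, against a median of 61.6% over the members' windows and 52.4% over 32851 mouse promoter windows of the same length. Promoter windows were looked up for the 28 measured genes and found for 25, 32 windows in all, of which 6 are windows of Ogdh, some overlapping. A GC box was in 20 of these 32 (62.5%), against 32.7% of all windows. The CCAAT box (CCAAT, either strand) was in 17 (53.1%), against 33.8% of all windows, the E-box CACGTG in 5 (15.6%), of which 3 are Ogdh windows, against 6.0%, and the sterol response element TCACNCCAC (either strand) in 0, against 1.1%. Counted by gene, 18 of the 25 had a GC box in a window, 14 a CCAAT box and 3 an E-box. These are matches of letters in a fixed window and describe no binding.

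**Figure D2:**
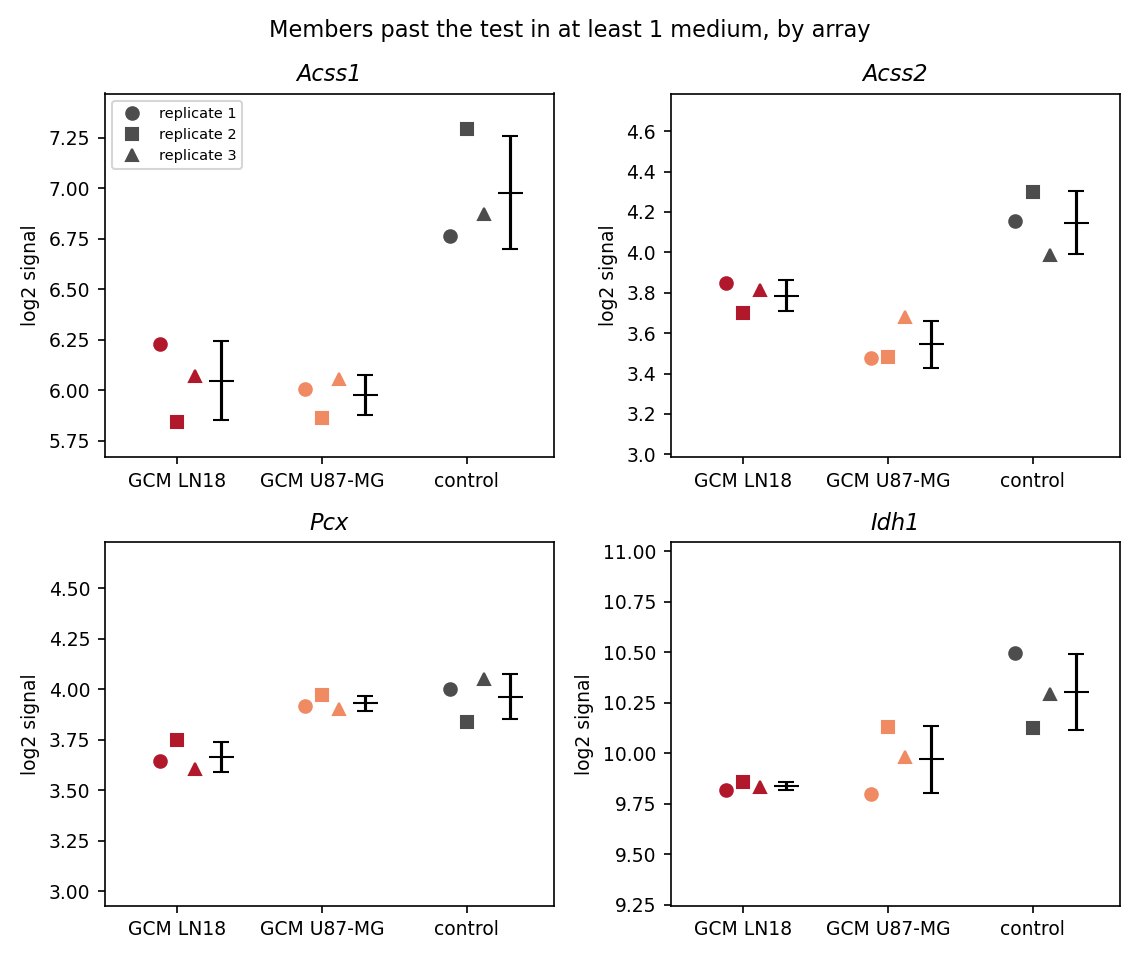
Log2 signal (y axis, of equal height in every panel) on each array for Acss1, Acss2, Pcx and Idh1 in GCM LN18, GCM U87-MG and control microglia. Symbols are replicates 1 to 3, and bars beside them are the mean ± SD of 3 arrays. Acss1 and Acss2 were below control on all 6 exposed arrays, and Pcx and Idh1 on the 3 GCM LN18 arrays.

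The pyruvate dehydrogenase complex, which converts pyruvate to acetyl-CoA at the entrance of the cycle, did not pass the test in any of its 3 measured subunits. Pdha1, the alpha subunit of its first enzyme, had log2 signals of 8.48, 8.47 and 8.47 with GCM LN18, 8.41, 8.29 and 8.43 with GCM U87-MG, and 8.41, 8.54 and 8.40 in control microglia. The arrays of each medium overlapped those of control, and control replicate 2 was the highest array. All 3 GCM LN18 arrays lay above those of GCM U87-MG. Its log2 fold change was 0.03 in GCM LN18 (limma adjusted p = 0.827) and -0.08 in GCM U87-MG (limma adjusted p = 0.506). Pdhb, the beta subunit, had -0.06 with GCM LN18 and -0.13 with GCM U87-MG, and Dlat, the acetyltransferase core, 0.06 with GCM LN18 and 0.01 with GCM U87-MG.

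Of the enzymes that feed carbon from pyruvate and malate, Pcx was lower in GCM LN18 and Me2 did not pass the test. Pcx, pyruvate carboxylase, which refills the cycle with oxaloacetate, had log2 signals of 3.64, 3.75 and 3.61 with GCM LN18, 3.92, 3.97 and 3.90 with GCM U87-MG, and 4.0006, 3.84 and 4.05 in control microglia. The 3 GCM LN18 arrays lay below the other 6, and the GCM U87-MG arrays lay among the control arrays. The log2 fold change was -0.30 in GCM LN18 (standard error 0.061, limma adjusted p = 0.0271, 0.137 when blocked) and -0.03 in GCM U87-MG (limma adjusted p = 0.822). Its mean log2 signal over all arrays was 3.85, which is also dim. The GCM LN18 call was lost without control replicate 1 (limma adjusted p = 0.0802) or 3 (0.0704) and without GCM LN18 replicate 1 (0.0971) or 3 (0.0939). Me2, the mitochondrial malic enzyme, which makes pyruvate from malate, had log2 signals of 4.32, 4.18 and 4.30 with GCM LN18, 4.33, 4.52 and 4.18 with GCM U87-MG, and 4.33, 4.27 and 4.49 in control microglia. Its groups overlapped, with log2 fold changes of -0.10 with GCM LN18 and -0.02 with GCM U87-MG (limma adjusted p = 0.578 and 0.939).

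Among citrate synthase and the isocitrate dehydrogenases, Idh1 passed the test, in GCM LN18, and the other 5 did not pass in either medium. Idh1, the cytosolic and peroxisomal isocitrate dehydrogenase, makes NADPH and stands outside the mitochondrial cycle. It had log2 signals of 9.82, 9.86 and 9.83 with GCM LN18, 9.80, 10.13 and 9.98 with GCM U87-MG, and 10.49, 10.12 and 10.29 in control microglia. The 3 GCM LN18 arrays were close to each other and below every control array, while GCM U87-MG replicate 2 lay within the control range. The log2 fold change was -0.47 in GCM LN18 (standard error 0.10, limma adjusted p = 0.0311, 0.119 when blocked), 1.38-fold lower, and -0.33 in GCM U87-MG (limma adjusted p = 0.142, 0.438 when blocked). Within replicates 1, 2 and 3 the differences from control were -0.68, -0.27 and -0.46 in GCM LN18 and -0.70, 0.01 and -0.31 in GCM U87-MG. The GCM LN18 call was lost without control replicate 1 (limma adjusted p = 0.0726) or 3 (0.0685) and without GCM LN18 replicate 1 (0.101), 2 (0.0955) or 3 (0.0910).

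Idh2, the NADPH-making isocitrate dehydrogenase of mitochondria, had the highest fold change of the 28 genes in both media without passing the test, at 0.21 in GCM LN18 (limma adjusted p = 0.213) and 0.19 in GCM U87-MG (limma adjusted p = 0.302). Its log2 signals were 8.19, 7.97 and 8.08 with GCM LN18, 8.12, 7.99 and 8.07 with GCM U87-MG, and 7.69, 8.04 and 7.86 in control microglia. Within replicate 2 it was lower than control by 0.08 in GCM LN18 and by 0.05 in GCM U87-MG, and in replicates 1 and 3 it was higher in both media.

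Cs, citrate synthase, which condenses acetyl-CoA with oxaloacetate, had log2 signals of 9.79, 9.73 and 9.73 with GCM LN18, 9.70, 9.66 and 9.76 with GCM U87-MG, and 9.65, 9.76 and 9.66 in control microglia. Its arrays overlapped and its log2 fold changes were 0.06 with GCM LN18 and 0.01 with GCM U87-MG (limma adjusted p = 0.479 and 0.906). Idh3a, the catalytic subunit of the NAD-dependent isocitrate dehydrogenase of the cycle, had log2 signals of 8.72, 8.64 and 8.68 with GCM LN18, 8.75, 8.61 and 8.68 with GCM U87-MG, and 8.45, 8.67 and 8.56 in control microglia. Its log2 fold changes were 0.11 with GCM LN18 and 0.12 with GCM U87-MG, with overlapping arrays (limma adjusted p = 0.325 and 0.348). A dimmer probe set of Idh3a (mean log2 signal 4.44) was higher in GCM LN18 by 0.21 (limma adjusted p = 0.0200 over all probe sets, 0.187 when blocked), and in GCM U87-MG it had 0.12 (adjusted p = 0.166). The other subunits, Idh3b and Idh3g, had log2 fold changes of -0.02 and 0.06 in GCM LN18 and 0.01 and -0.02 in GCM U87-MG.

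The oxoglutarate dehydrogenase complex, which makes succinyl-CoA, and the ligases that turn succinyl-CoA into succinate had 5 measured members, and none passed the test. Ogdh, the first enzyme of the complex, had log2 signals of 6.80, 6.83 and 6.76 with GCM LN18, 6.79, 6.76 and 6.55 with GCM U87-MG, and 6.74, 6.73 and 7.01 in control microglia. Control replicate 3 was the highest and GCM U87-MG replicate 3 the lowest array, with the rest together. Its log2 fold changes were -0.03 with GCM LN18 and -0.13 with GCM U87-MG (limma adjusted p = 0.885 and 0.487). Suclg2, the subunit of the GTP-forming succinyl-CoA ligase, had log2 signals of 7.22, 7.22 and 7.17 with GCM LN18, 7.42, 7.27 and 7.37 with GCM U87-MG, and 7.09, 7.25 and 7.19 in control microglia. All 3 GCM U87-MG arrays lay above the other 6, and the fold change of 0.17 did not pass after adjustment (limma adjusted p = 0.156, 0.509 when blocked). Dlst, the succinyltransferase core, Sucla2, the subunit of the ATP-forming ligase, and Suclg1, the subunit both ligases share, had log2 fold changes of -0.03, 0.01 and 0.04 in GCM LN18 and -0.09, -0.02 and -0.04 in GCM U87-MG.

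Succinate dehydrogenase, which oxidises succinate and is also complex II of the respiratory chain, had its 4 subunits within 0.05 of control in both media. Sdha, the flavoprotein that binds succinate, had log2 signals of 9.92, 9.87 and 9.93 with GCM LN18, 9.91, 9.87 and 9.92 with GCM U87-MG, and 9.91, 10.01 and 9.90 in control microglia. The groups overlapped apart from control replicate 2, which was the highest array. Its log2 fold changes were -0.03 with GCM LN18 and -0.04 with GCM U87-MG (limma adjusted p = 0.705 and 0.681). Sdhb, the iron-sulphur subunit, and the membrane anchors Sdhc and Sdhd had 0.05, -0.01 and 0.01 in GCM LN18 and -0.0009, -0.01 and -0.04 in GCM U87-MG.

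Fh1, fumarase, which hydrates fumarate to malate, had log2 signals of 9.25, 9.25 and 9.29 with GCM LN18, 9.39, 9.20 and 9.30 with GCM U87-MG, and 9.13, 9.31 and 9.17 in control microglia. Mdh2, the mitochondrial malate dehydrogenase that closes the cycle, had 11.02, 11.03 and 10.97 with GCM LN18, 11.03, 10.92 and 11.05 with GCM U87-MG, and 10.94, 11.04 and 10.97 in control microglia. For both genes the 3 groups overlapped. The log2 fold changes were 0.06 for Fh1 and 0.02 for Mdh2 in GCM LN18 and 0.10 and 0.02 in GCM U87-MG (limma adjusted p from 0.457 to 0.895). Mdh1, the cytosolic malate dehydrogenase of the malate-aspartate shuttle, had log2 signals of 11.41, 11.38 and 11.39 in GCM U87-MG, all above the 11.28, 11.31 and 11.31 of control microglia. This difference of 0.09 did not pass after adjustment (limma adjusted p = 0.194, 0.653 when blocked), and the difference in GCM LN18 was 0.01. The other probe set of Mdh1 (mean log2 signal 10.28) had 0.03 in GCM U87-MG and 0.02 in GCM LN18, with overlapping arrays in both.

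The genes that link the cycle to glutamate, aspartate and cytosolic citrate did not pass the test. Glud1, glutamate dehydrogenase, which makes oxoglutarate from glutamate, had log2 signals of 9.44, 9.38 and 9.36 with GCM LN18, 9.55, 9.50 and 9.52 with GCM U87-MG, and 9.47, 9.58 and 9.58 in control microglia. The GCM LN18 arrays lay below the other 6, with a log2 fold change of -0.15 (limma adjusted p = 0.0880, 0.356 when blocked), while in GCM U87-MG it was -0.02 (limma adjusted p = 0.856). Slc25a1, the carrier that exports citrate from mitochondria for acetyl-CoA production in the cytosol, had 7.89, 7.73 and 7.91 with GCM LN18, 7.73, 7.71 and 7.65 with GCM U87-MG, and 7.76, 7.94 and 7.82 in control microglia. The GCM U87-MG arrays lay below the control arrays, with a log2 fold change of -0.14 (limma adjusted p = 0.280), and in GCM LN18 it was 0.0004 (limma adjusted p = 0.998). Got2, the mitochondrial aspartate aminotransferase, had 0.07 with GCM LN18 and -0.01 with GCM U87-MG.

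As a group, the 15 measured enzymes of the cycle itself (Cs, Idh3a, Idh3b, Idh3g, Ogdh, Dlst, Sucla2, Suclg1, Suclg2, the 4 Sdh subunits, Fh1 and Mdh2) had log2 fold changes of -0.03 to 0.11 in GCM LN18 (lowest limma adjusted p = 0.325, 0 at an unadjusted p under 0.05) and of -0.13 to 0.17 in GCM U87-MG (lowest limma adjusted p = 0.156, 1 at an unadjusted p under 0.05). The exposed and control arrays overlapped in 15 of the 15 in GCM LN18 and in 14 in GCM U87-MG. For the 24 members called in neither medium, the 95% confidence intervals with the replicate block ran from -0.33 to 0.45 in GCM LN18 and from -0.36 to 0.43 in GCM U87-MG, so all 24 lay within 0.5 of 0 on the log2 scale in both media. Within the narrower bound of 0.25 lay 19 of the 24 with GCM LN18 and 15 with GCM U87-MG. Across all 28 genes, the exposed arrays lay wholly below the control arrays for 5 genes in GCM LN18 (12.8% of all genes did) and for 4 in GCM U87-MG (10.3%), and wholly above for 2 (11.1%) and 2 (8.79%).

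**Figure D3:**
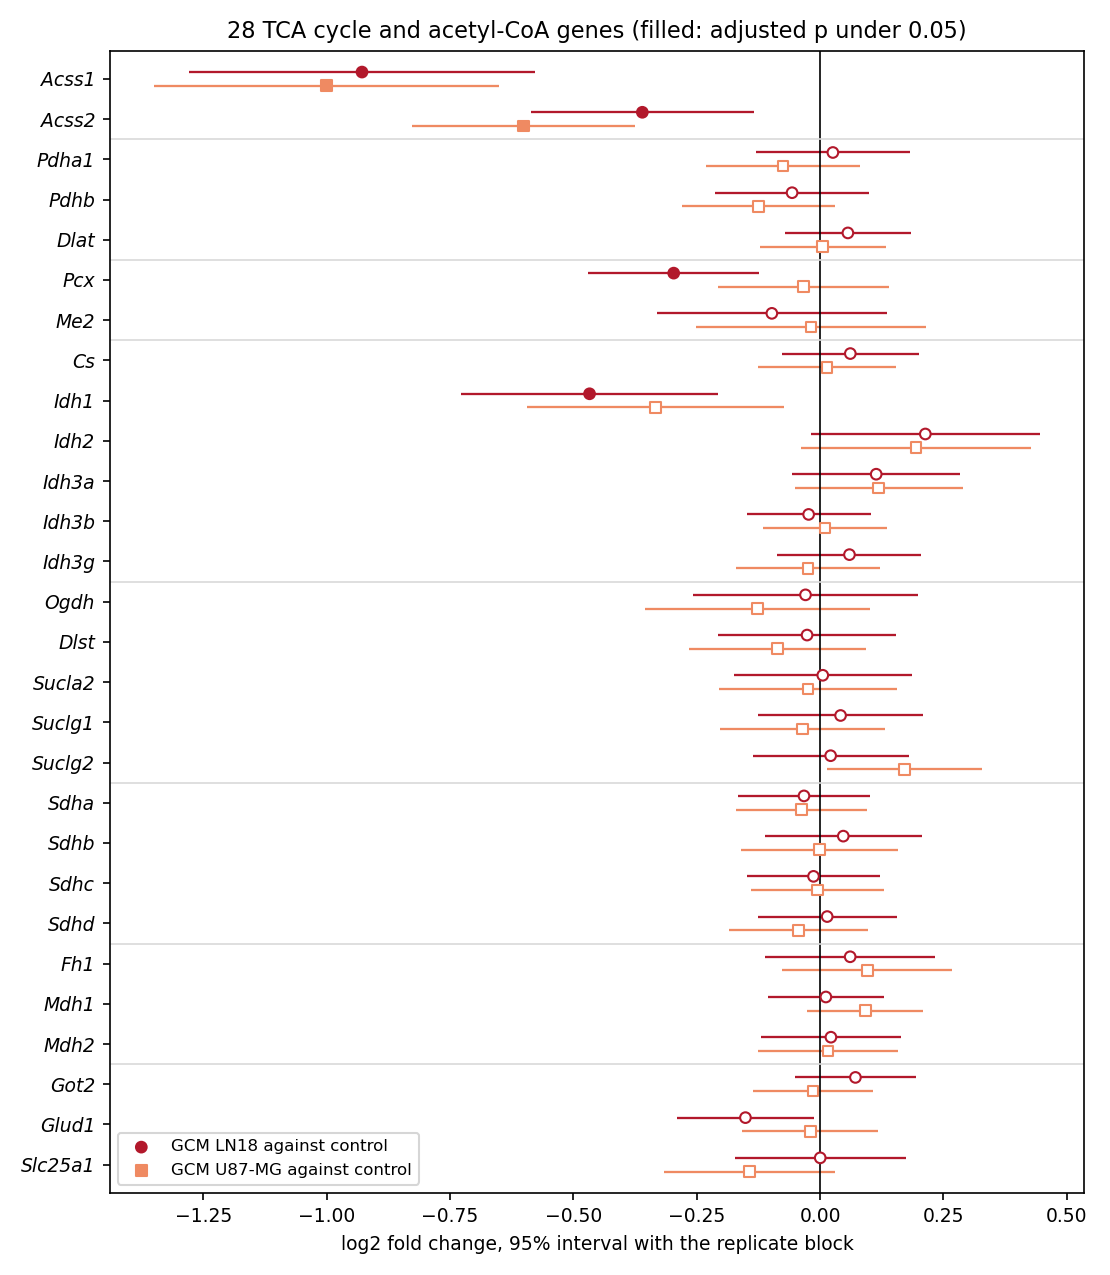
Log2 fold change (x axis) of the 28 measured genes (y axis, in groups by role) in GCM LN18 (circles, upper of each pair) and GCM U87-MG (squares, lower) against control, with 95% confidence intervals from the fit with the replicate block. Filled symbols have an adjusted p under 0.05 without the block. Acss1 and Acss2 are filled in both media, Pcx and Idh1 in GCM LN18, and the other 24 genes lie close to 0.

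GCM LN18 and GCM U87-MG were also compared directly, and limma called 0 of the 28 genes (7 had an unadjusted p under 0.05, or 2 when blocked, as did 2052 and 865 of all 17097 genes), where 0.00585% of all genes were called. The GCM LN18 arrays lay wholly above those of GCM U87-MG for 3 genes (8.92% of all genes did) and wholly below for 4 (8.48%). Pcx was 0.26 lower in GCM LN18 than in GCM U87-MG (limma adjusted p = 0.166), with all 3 arrays below. Acss2 was 0.24 higher in GCM LN18 (limma adjusted p = 0.336), with all 3 arrays above. For Acss1 the difference was 0.07 (95% confidence interval with the block -0.28 to 0.42) and for Idh1 -0.13 (-0.39 to 0.13), and both intervals include 0.

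The neighbouring genes of the pathway were taken from 8 lists of 132 genes, of which 108 were measured. In GCM LN18, limma called 2 of them higher (0 when blocked) and 6 lower (2 when blocked), where 2.59% and 2.64% of all genes were called higher and lower (0.538% and 0.339% when blocked). In GCM U87-MG, 2 were called lower and 0 higher, where 0.708% and 0.807% of all genes were, and neither of the 2 when blocked. Among 12 measured genes that regulate pyruvate dehydrogenase or attach its lipoyl groups, the kinase Pdk3, which switches the complex off, was higher in GCM LN18, and the phosphatases Pdp1 and Pdp2, which switch it on, were lower. Pdk3 had log2 signals of 5.81, 5.60 and 5.80 with GCM LN18, 5.62, 5.70 and 5.57 with GCM U87-MG, and 5.32, 5.45 and 5.38 in control microglia. All exposed arrays lay above control, with a log2 fold change of 0.36 in GCM LN18 (limma adjusted p = 0.0171, 0.0906 when blocked) and 0.25 in GCM U87-MG (limma adjusted p = 0.105). Pdp2 had 5.03, 4.73 and 4.97 with GCM LN18, 5.15, 5.26 and 5.19 with GCM U87-MG, and 5.37, 5.56 and 5.39 in control microglia. It was below control on all exposed arrays, with -0.53 in GCM LN18 (limma adjusted p = 0.00857, 0.0511 when blocked) and -0.24 in GCM U87-MG (limma adjusted p = 0.181). Pdp1 fell by 0.42 in GCM LN18 (limma adjusted p = 0.0372, 0.140 when blocked) and had -0.21 in GCM U87-MG (limma adjusted p = 0.293). Pdk4, a kinase induced in fasting, was dim on all arrays (2.21 to 2.41) and had -0.12 with GCM LN18 and 0.01 with GCM U87-MG. The median of this list was -0.04 with GCM LN18 and 0.001 with GCM U87-MG.

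Among 15 other genes that make or use acetyl-CoA, Aacs and Oxct1, which both handle ketone bodies, were lower in GCM LN18. Aacs, the cytosolic synthetase that activates acetoacetate for lipid synthesis, had log2 signals of 5.93, 5.73 and 5.92 with GCM LN18, 6.05, 6.09 and 6.04 with GCM U87-MG, and 6.50, 6.66 and 6.51 in control microglia. The 3 groups did not overlap, with GCM LN18 lowest and control highest. The log2 fold change was -0.70 in GCM LN18 (limma adjusted p = 0.00122, 0.0150 when blocked) and -0.50 in GCM U87-MG (limma adjusted p = 0.0117, 0.105 when blocked). Oxct1, the mitochondrial enzyme that activates acetoacetate for oxidation, fell by 0.29 in GCM LN18 (limma adjusted p = 0.00636, 0.0705 when blocked) and had -0.18 in GCM U87-MG (limma adjusted p = 0.0741). Acly, which makes cytosolic acetyl-CoA from citrate, had -0.08 with GCM LN18 and -0.11 with GCM U87-MG (limma adjusted p = 0.406 and 0.330). The median of this list was -0.07 with GCM LN18 and -0.09 with GCM U87-MG.

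Of 5 measured sterol-sensing genes, Insig1, which holds back the activation of sterol response element-binding proteins and is itself one of their targets, was lower in both media. It had log2 signals of 6.51, 6.08 and 6.25 with GCM LN18, 6.22, 6.89 and 6.48 with GCM U87-MG, and 7.63, 7.39 and 7.63 in control microglia, with all exposed arrays below control. The log2 fold change was -1.27 in GCM LN18 (limma adjusted p = 0.00420, 0.0269 when blocked) and -1.02 in GCM U87-MG (limma adjusted p = 0.0270, 0.145 when blocked). The list's median was -0.29 with GCM LN18 and -0.31 with GCM U87-MG, with 5 of 5 genes below 0 in each. None of these genes besides Insig1 passed the test.

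The other lists held few calls after adjustment. Among 17 further genes of the cycle, its refilling and its assembly, Sdhaf2, which attaches the flavin to Sdha, was higher in GCM LN18, with 7.84, 7.80 and 7.82 there, 7.63, 7.61 and 7.67 in GCM U87-MG, and 7.58, 7.64 and 7.56 in control microglia (log2 fold change 0.22, limma adjusted p = 0.0111, 0.122 when blocked). In GCM U87-MG it had 0.04 (limma adjusted p = 0.618). Of 9 regulators of mitochondrial genes, Polrmt, the mitochondrial RNA polymerase, fell by 0.29 in GCM LN18 (limma adjusted p = 0.00817, 0.0793 when blocked) and had -0.16 in GCM U87-MG (limma adjusted p = 0.123). None of 24 subunits of the respiratory chain and ATP synthase, 13 mitochondrial carriers and 13 genes of fatty acid oxidation passed limma's test in either medium (unadjusted p under 0.05 for 4, 2 and 3 of them in GCM LN18, where 3530 of all 17097 genes had it, and for 0, 1 and 4 in GCM U87-MG, where 2914 had it). Respiratory chain genes had log2 fold changes of -0.13 to 0.12 in GCM LN18 and -0.08 to 0.08 in GCM U87-MG. In GCM LN18, limma's unadjusted p was under 0.05 for 8 of the 17 further cycle genes (4 when blocked). It was also for 9 of the 15 acetyl-CoA genes (8), 5 of the 12 pyruvate dehydrogenase regulators (3), 4 of the 5 sterol-sensing genes (3) and 2 of the 9 mitochondrial regulators (1). The shares of all genes were 20.6% and 12.2%. In GCM U87-MG these counts were 3 (1), 4 (3), 3 (2), 3 (3) and 2 (1), against 17% and 9.12%.

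**Figure D4:**
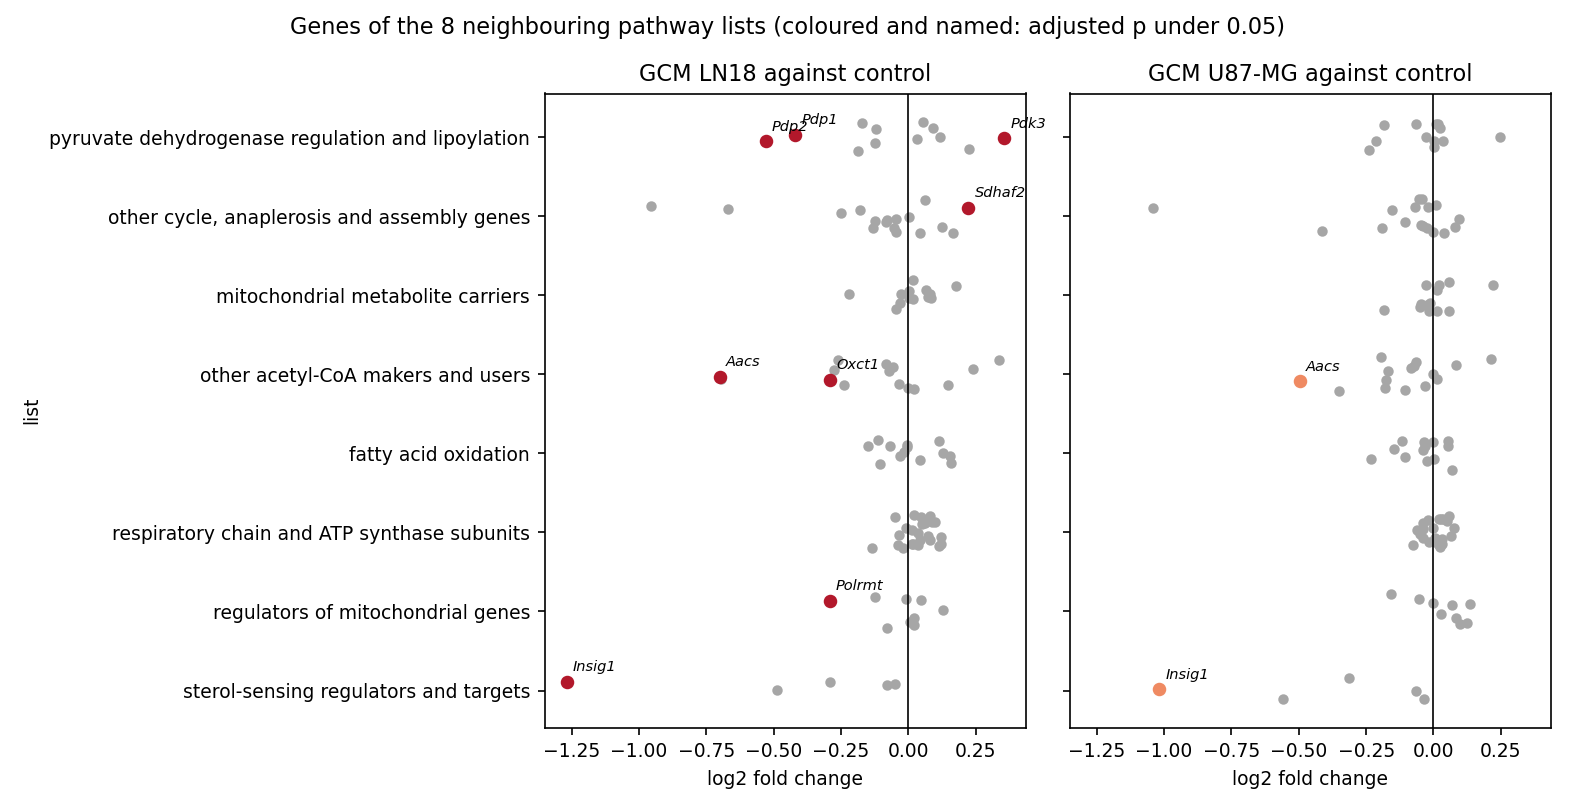
Log2 fold change (x axis) of the 108 measured genes of the 8 neighbouring lists (y axis, points spread vertically for legibility) in GCM LN18 (left) and GCM U87-MG (right) against control. Coloured and named genes have an adjusted p under 0.05 without the replicate block. Insig1 and Aacs are coloured in both media, and respiratory chain subunits span the narrowest range of the 8 lists.

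The label of the cells was set against marker genes. Of 10 measured microglial markers, 5 were called higher and 0 lower in GCM LN18 (Aif1, C1qa, Cx3cr1, Fcrls and Tmem119, of which 2 when blocked). Of all genes, 2.59% were called higher and 2.64% lower there (0.538% and 0.339% when blocked). In GCM U87-MG, 2 were called higher and 0 lower (Cx3cr1 and Fcrls, of which 1 when blocked). Of all genes, 0.807% were called higher and 0.708% lower there (0.0468% and 0% when blocked). Their summed linear signal was 13828 to 14007 in GCM LN18, 13241 to 13951 in GCM U87-MG and 11541 to 12019 in control microglia, with P2ry12 and Tmem119 dim. The summed signal of 8 astrocyte markers was 83.8 to 88.9 in GCM LN18, 85.9 to 88.9 in GCM U87-MG and 86.0 to 94.95 in control microglia. None of the 29 measured astrocyte, oligodendrocyte lineage, neuron, or fibroblast and endothelium markers passed limma's test in either medium. Their unadjusted p was under 0.05 for 4 with GCM LN18 (20.6% of all genes) and 7 with GCM U87-MG (17% of all genes). Of 5 border macrophage markers, 3 had log2 fold changes above 0 in GCM LN18 and 2 below 0 (-0.25 to 0.27). Of these, 1 was called lower (Mrc1, -0.25, limma adjusted p = 0.0375, 0.182 when blocked). Their summed signal was 1119 to 1201 in GCM LN18, 1085 to 1157 in GCM U87-MG and 1123 to 1161 in control microglia. Mrc1 and Pf4 were the brightest of them (mean log2 signals 9.07 and 9.17). The other microglial markers did not pass, among them Trem2 and Tyrobp (log2 fold changes 0.01 and 0.01 in GCM LN18), while Cx3cr1 had 0.97 there (limma adjusted p = 0.000459, 0.00827 when blocked) and 0.78 in GCM U87-MG (0.00410, 0.0499 when blocked). The called markers were higher in the same groups in which Acss1 and Acss2 were lower, and their part in that was not tested. In these bulk cultures, fewer cells of a type and less RNA per cell cannot be told apart.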

How the data were processed

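Total RNA of 9 samples was measured on Affymetrix MG-430 PM strips, 1 array per sample. The deposited values are log2 signals per probe set, normalized by the authors before deposit; the study's methods name RMA for public array data and do not say whether it was used for these arrays, and the submitters' notes name limma without a version. For 100% of probe sets the 3 replicate numbers have equal means (within 1e-06). Precision is limited by the number of arrays, 3 per group, since arrays carry no read depth.

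Of 45037 probe sets other than controls, 28898 carry 1 symbol in the platform annotation (28689 matched by gene identifier to the RefSeq table of GRCm38.p6), and the brightest of each gene gave 17097 genes. Probe sets with several symbols (551) or with no symbol here (15588) were left out. Groups came from the sample titles. Linear models with 1 mean per group were fitted over all 9 arrays with limma 3.58.1 in R 4.3.3, and p-values were adjusted by Benjamini-Hochberg over all genes. Intervals are 95%. The scripts were tested on simulated data, in which values were centred in the same way: the fit without the replicate block gave too many low p-values and the blocked fit did not. The blocked adjusted p is therefore printed beside each member's call over all 9 arrays.

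The 30 genes, their roles and the 8 neighbouring lists were chosen with earlier results of these data known. Values on every array are given for members past the test and for a fixed set of key enzymes, and for Idh2, Suclg2 and Mdh1, added after their values were seen. From each list at most 3 higher and 3 lower genes are named, with Insig1, Acly and Pdk4. The fits were repeated with the replicate block, with trended and robust eBayes, with a minimum mean log2 signal of 4, the mean of a gene's probe sets, all probe sets, median centring, quantile normalization or only the groups compared, and without each array. Chosen after seeing the data, the block was also combined with the mean of probe sets, with all probe sets and with leaving out control replicate 2. Promoter windows are from RefSeq.

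The sources do not say if same-numbered arrays share a culture. Deviations of same-numbered arrays from their group means correlated at -0.72 to -0.06 across genes. Equal means per number make these deviations sum to 0, which lowers the correlations jointly without fixing the sign of each pair. This check therefore cannot show a pairing, and the block rests on the equal means.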

Additional observations from a re-analysis of the deposited data

How the results depend on the processing

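With the replicate block, which gives each replicate number a term of its own, 150 genes were called in GCM LN18 in place of 894 and 8 in GCM U87-MG in place of 259, 0 in place of 1 between the media, and 1 and 0 of the 28 members in GCM LN18 and GCM U87-MG in place of 4 and 2. The block combined with the mean of probe sets, with all probe sets or without control replicate 2 (chosen after seeing the data) called 121, 215 and 126 with GCM LN18, 5, 6 and 3 with GCM U87-MG, 0 between the media, and each time 1 member for GCM LN18 (Acss1) and 0 for GCM U87-MG. Over all probe sets, 1500 were called in GCM LN18. When only the groups compared were fitted, 45 genes were called in GCM U87-MG, 0 between the media, and 2 (Acss1, Idh1) and 1 (Acss1) members in GCM LN18 and GCM U87-MG. The filter on dim genes removes Acss2 and Pcx by its construction and left 2 and 1 members, the mean of probe sets left 1 in GCM U87-MG (Acss1), and eBayes with trend and robust estimation gave 0 genes between the media. The cause of these shifts was not tested otherwise.

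Leaving out 1 array gave 337 to 856 genes in GCM LN18, 32 to 229 in GCM U87-MG and 0 to 0 between the media. Members called numbered 1 to 4 in GCM LN18, with 1 without control replicate 1 or GCM LN18 replicate 1 or 3 and 2 without control replicate 3 or GCM LN18 replicate 2. They numbered 0 to 2 in GCM U87-MG, with 0 without GCM U87-MG replicate 1 or 2 and 1 without control replicate 1 or GCM U87-MG replicate 3. Where 2 arrays of a group remain, their spread is pooled with that of the other groups. The arrays that share a number with the one left out keep values set by their shared mean, so its influence is not fully removed.

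Changes of sign occurred only among differences that did not pass the test and lie near 0. With the mean of probe sets, without or with the block, the log2 fold change was -0.0343 for Pdha1 in GCM LN18, -0.0114 for Cs and -0.017 for Mdh2 in GCM U87-MG and -0.0007 for Acss1 between the media, and with median centring it was -0.0012 for Slc25a1 in GCM LN18. Without control replicate 2 and with the block it was 0.0179 for Sdha in GCM LN18 and 0.0128 for Sdha and 0.0104 for Glud1 in GCM U87-MG. Without 1 array, the ranges in GCM LN18 were -0.0007 to 0.0725 for Pdha1, -0.078 to 0.0638 for Ogdh, -0.0529 to 0.0011 for Sdha and -0.0394 to 0.056 for Slc25a1. In GCM U87-MG they were -0.0115 to 0.0474 for Cs, -0.0957 to 0.0112 for Pcx, -0.0085 to 0.0541 for Mdh2, -0.0577 to 0.0003 for Glud1 and -0.1073 to 0.0625 for Me2, and between the media -0.0181 to 0.174 for Acss1. Among values of single members under an alternative, 557 kept their direction and side of the threshold, 48 lost the call and 29 changed sign. Acss1 in GCM LN18 was called under all 20 alternatives (11 settings and 9 arrays left out). The fits for the 9 arrays left out and most of the settings had no block, and such fits gave too many low p-values on simulated data. With the block, its limma adjusted p lay close to the threshold, at 0.0411 over all genes and 0.0492 over all probe sets.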
